A study of Sus scrofa with 45 samples.

Results

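The platelet genes are 8 genes whose products are found in blood platelets: PF4, PPBP, ITGA2B, ITGB3, GP1BA, THBS1, CLU and SPARC. They were measured in whole blood and in white blood cells of male Clawn miniature pigs on Agilent porcine arrays, which were read in 1 colour. Members were all array probes, control spots left out, whose gene name, RefSeq accession or description named one of the genes. That search uses no measured value, but the genes themselves were chosen with earlier results of these data known. The search found 13 probes of the 43603 on the array: 1 each for PF4, ITGA2B, ITGB3, GP1BA and CLU, 2 each for PPBP and THBS1 and 4 for SPARC. Where a gene had several probes, the one with the highest mean over the 45 arrays stood for it, and the others are described beside it.

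The pigs were 12 weeks old when the feeding began. Control pigs received a standard dry feed, HFCD pigs a high-fat, high-cholesterol diet with lard and cholesterol, and HFCSD pigs the same additions together with sucrose. Whole blood was taken after 10, 19 and 27 weeks of feeding, and white blood cells only after 27 weeks. The 12 groups held 4 arrays each, except 3 of whole blood that held 3 (HFCSD at 19 weeks, and both high-fat diets at 27 weeks), which gave 33 whole blood and 12 white blood cell arrays. The labels number the pigs within each group, and the pigs were sampled repeatedly, so that the periods and sample types of a diet share pigs. Whether a number names the same pig in every group is not given in the sources used here, and the fits took the arrays as independent. The number of arrays limits the precision. Whole blood RNA came from PAXgene tubes and white blood cell RNA from a leukocyte filter kit (LeukoLOCK), and each of the 2 sample types at 27 weeks was scanned on a day of its own. Sample type, isolation kit and scan day therefore cannot be told apart, and in bulk RNA fewer platelets and less RNA per platelet cannot be told apart either.

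Platelets are small cells without a nucleus that bud from megakaryocytes in the bone marrow and carry megakaryocyte RNA into the blood. They stick to injured vessel walls through GP1BA, the chain of the glycoprotein Ib complex that binds von Willebrand factor, and to each other through the fibrinogen receptor, a pair of ITGA2B (glycoprotein IIb) and ITGB3 (glycoprotein IIIa). On activation they empty their alpha granules, which hold the chemokines PF4 (platelet factor 4) and PPBP (pro-platelet basic protein), the matrix protein thrombospondin 1 (THBS1), the secreted chaperone clusterin (CLU) and osteonectin (SPARC). PF4, PPBP, ITGA2B and GP1BA are made largely by the megakaryocyte lineage, whereas THBS1, CLU and SPARC are also made by many other cells.

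The probes differ in how firmly they name their gene, and the sequences that bear on a disagreement are printed here from the array files, 5′ to 3′. The probe of PPBP designed on its RefSeq mRNA (A_72_P035431) ends in a stop triplet, in capitals, and the other PPBP probe (A_72_P306158), designed on an alveolar macrophage clone, is given by its first 30 bases.
PPBP A_72_P035431: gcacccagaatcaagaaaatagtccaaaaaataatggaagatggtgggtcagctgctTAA
PPBP A_72_P306158: ctgcccttgtcaatgttggttttataagca
The THBS1 probes differed in signal and are shown by their first 30 bases. A_72_P141941 was designed on a cDNA read from the 3′ end of a clone, and A_72_P373148 on a contig described as a fragment of thrombospondin 1. The strand of either probe relative to the THBS1 transcript is not given in the sources used here, and A_72_P141941 may lie antisense to it. THBS1 values below are therefore those of the named probe and may not follow the THBS1 mRNA.
THBS1 A_72_P141941: ttctggtgtggttccaaagacaaacctcac
THBS1 A_72_P373148: agtgtcgttgtcaggtaagtggtctctaca
GP1BA had a single probe, on a contig whose description records only a partial match, over 7% of the sequence, to human glycoprotein Ib alpha. That probe may not measure GP1BA, and the GP1BA values below are those of the probe. The first 30 bases of this GP1BA probe follow.
GP1BA A_72_P197885: cagccctcagcgtaacttcagttttcatga
A pair of the SPARC probes overlaps by 56 bases with 1 difference, T57C, counted from the 5′ end of A_72_P303134. The last 30 bases of the overlap carry it in capitals.
SPARC A_72_P303134: ctttcctttgctttctagcatgttccTcca
SPARC A_72_P092671: ctttcctttgctttctagcatgttccCcca

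On each array 35.4% to 53.3% of the spots passed the scanner software's own test of being well above background (43.4% to 50.9% on white blood cell arrays), and no spot was saturated. Levels below are log2 of the quantile-normalized signal, so that 1 unit is a doubling, and they cannot be compared between probes. Differences were tested with limma and adjusted by the Benjamini-Hochberg method over all probes tested, and a probe was called at an adjusted p under 0.05. Of 7 measured T cell genes, 6 were called higher in white blood cells than in whole blood in control, 3 in HFCD and 5 in HFCSD, where 45.3%, 47.5% and 58.9% of all probes were called in either direction. CD3G, a subunit of the T cell receptor complex, lay between 11.11 and 12.53 in white blood cells and between 9.54 and 11.60 in whole blood.

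A pair of white blood cell arrays stood apart in the platelet genes, namely control replicate 1 and HFCD replicate 2. ITGA2B was 8.62 on control replicate 1 and 13.92, 14.14 and 14.74 on the other control arrays. It was 7.57 on HFCD replicate 2, against 13.04, 11.83 and 13.91 on the others of that diet. These were the lowest values of ITGA2B on any of the 45 arrays. The same arrays were also the lowest of their groups for PF4, PPBP, ITGB3 and CLU. The main comparisons, correlations and spreads of the members over white blood cells are therefore also given without both of them. Probe agreement, the pattern search and most values of the other gene lists are given with all arrays only. That choice was made after seeing the data, and because the arrays were picked for low values of these genes, leaving them out raises the genes by construction and supports nothing on its own.

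PF4 was well above background on all 45 arrays. In control whole blood PF4 measured 13.37, 13.65, 13.85 and 14.03 at 10 weeks. It measured 12.98, 13.58, 13.91 and 13.61 at 19 weeks and 13.86, 13.83, 14.16 and 14.13 at 27 weeks. PF4 thus stayed within little more than 1 log2 unit across the control whole blood arrays. In HFCD whole blood it measured 12.84, 12.81, 13.07 and 12.82 at 10 weeks, then 10.68, 13.38, 13.54 and 8.80 at 19 weeks, then 13.30, 13.33 and 12.77 at 27 weeks. In HFCSD whole blood it measured 13.08, 13.88, 13.22 and 13.94 at 10 weeks, then 13.23, 11.93 and 13.75 at 19 weeks. At 27 weeks the HFCSD values of PF4 were 13.81, 12.92 and 10.76. The lowest values of PF4 in whole blood lay on 2 HFCD arrays and 1 HFCSD array at 19 weeks and on 1 HFCSD array at 27 weeks, while at 10 weeks all HFCD arrays were below all control arrays. In white blood cells PF4 measured 10.30, 14.09, 14.07 and 14.07 in control, 13.99, 9.17, 12.94 and 13.93 in HFCD, and 13.86, 14.23, 12.69 and 11.96 in HFCSD. The highest control white blood cell values of PF4 were close to the highest of control whole blood.

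PPBP followed the same arrays with a wider range, 4.58 to 13.61 over the 45 arrays. The probe A_72_P306158 was well above background on 44 of them, and the exception was the lowest, HFCD replicate 4 at 19 weeks. In whole blood at 27 weeks PPBP measured 10.01, 10.27, 10.48 and 10.71 in control, 8.99, 9.27 and 8.62 in HFCD, and 10.12, 9.40 and 5.82 in HFCSD. In white blood cells it measured 7.97, 13.61, 13.01 and 12.22 in control, 12.46, 7.27, 10.84 and 12.30 in HFCD, and 12.63, 12.76, 10.69 and 9.60 in HFCSD. Within each diet 3 of 4 white blood cell values exceeded all whole blood values of 27 weeks, and the exceptions were the pair of low arrays and HFCSD replicate 4. The RefSeq probe of PPBP, printed above with its stop triplet, moved with this one. The correlation of the 2 probes' deviations from their group means was 0.96 over 45 arrays, 0.93 over the 33 whole blood arrays and 0.98 over the 12 white blood cell arrays.

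The fibrinogen receptor genes behaved as a pair. ITGA2B lay between 8.997 and 13.10 in whole blood and between 7.57 and 14.74 in white blood cells. ITGB3 lay between 9.20 and 13.22 in whole blood and between 7.25 and 14.17 in white blood cells. ITGB3 measured 7.99, 13.47, 13.83 and 14.17 on the control white blood cell arrays, 12.35, 7.25, 11.82 and 13.18 in HFCD, and 13.57, 12.83, 10.88 and 10.31 in HFCSD. The order of these arrays is close to that of ITGA2B, which measured 14.05, 13.27, 10.73 and 10.64 in HFCSD white blood cells.

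CLU lay between 5.22 and 12.06 in whole blood and between 5.999 and 13.22 in white blood cells. In white blood cells clusterin measured 7.45, 13.14, 13.11 and 13.22 in control, 11.57, 5.999, 11.03 and 12.73 in HFCD, and 12.16, 11.93, 9.74 and 9.52 in HFCSD. Its low arrays were those of the fibrinogen receptor genes.

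The GP1BA probe, which may not measure the gene, was nearly flat, between 7.71 and 8.80 over all 45 arrays. Its mean was lowest in HFCSD whole blood at 27 weeks at 7.98 (SD 0.27, n = 3) and highest in control white blood cells at 8.62 (SD 0.07, n = 4). On the low white blood cell arrays named above the GP1BA probe measured 8.66 in control, the second highest of its group, and 8.18 in HFCD, the lowest of its group.

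SPARC could hardly be measured in blood. Its representative probe was well above background on 9 of 45 arrays, and the others on 10, 3 and 0 arrays. No SPARC probe was well above background on every array of any group, so none was tested in any comparison, and its levels of 1.64 to 4.93 carry no order.

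Ordered by group mean, no gap between neighbouring groups exceeded the larger of their 2 SDs for PF4, ITGA2B, ITGB3 or GP1BA, in 11 gaps each, and SPARC was not ordered. The highest PF4 mean, 13.99 (SD 0.17, n = 4) in control whole blood at 27 weeks, and the lowest, 11.60 (SD 2.28, n = 4) in HFCD whole blood at 19 weeks, were linked by such steps. PPBP had 1 gap beyond the spread, below HFCSD whole blood at 10 weeks. CLU had 1, above HFCD whole blood at 10 weeks. THBS1 had 1, of 3.09 log2 units, which set the 9 whole blood groups above the 3 white blood cell groups.

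**Figure D1:**
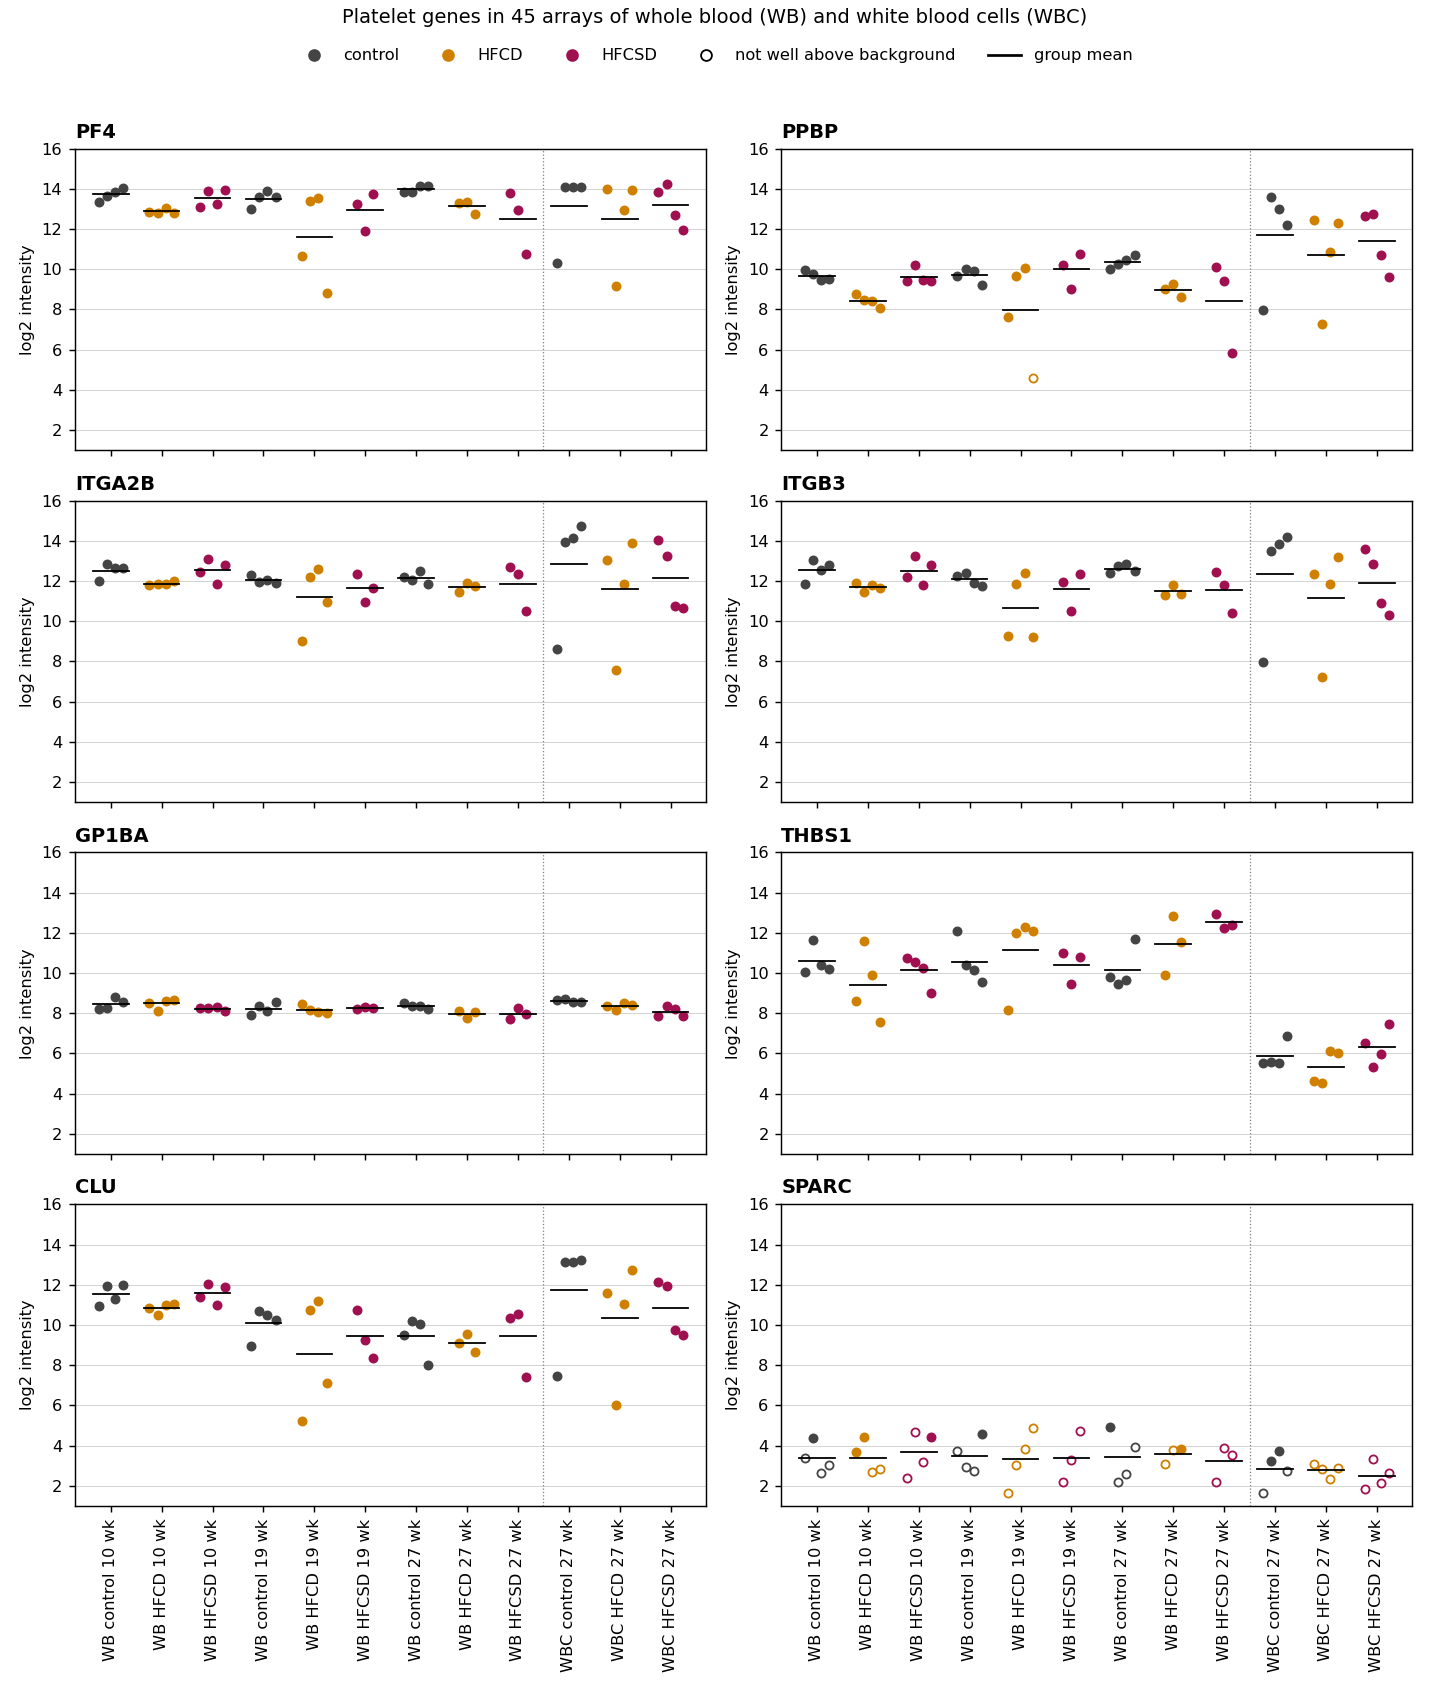
Level of each platelet gene's representative probe, as log2 of the quantile-normalized signal, in the 12 groups, with 1 point per array and the group mean drawn as a line. The whole blood groups of THBS1 lie above its white blood cell groups, and PF4, PPBP, ITGA2B, ITGB3 and CLU each show low white blood cell arrays in control and HFCD.

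White blood cells were set against whole blood of the same diet at 27 weeks to see which transcripts of whole blood are also present in the leukocyte fraction. THBS1, read by A_72_P141941, was the one member called lower in white blood cells in all 3 diets. Whole blood THBS1 measured 9.82, 9.47, 9.66 and 11.69 in control, 9.90, 12.85 and 11.55 in HFCD, and 12.93, 12.26 and 12.39 in HFCSD. White blood cell THBS1 measured 5.54, 5.57, 5.52 and 6.86 in control, 4.63, 4.54, 6.11 and 6.03 in HFCD, and 6.55, 5.35, 5.98 and 7.45 in HFCSD. The sample types did not overlap in any diet. The difference, white blood cells minus whole blood, was -4.29 in control (95% interval -5.55 to -3.03, adjusted p = 1.65e-05), a level 19.5-fold lower. In HFCD it was -6.11 (-7.47 to -4.74, adjusted p = 1.63e-06) and in HFCSD -6.20 (-7.56 to -4.83, adjusted p = 7.47e-07), 68.9-fold and 73.3-fold lower. The size depended on the processing and the arrays used. Over the alternatives it ran from -4.62 to -3.28 in control, from -6.87 to -4.76 in HFCD and from -6.57 to -4.10 in HFCSD. THBS1 was called in all of them. Calls were common in these comparisons, so a single call among the members is not a result about platelet genes: 45.3% of all probes tested were called in control, 47.5% in HFCD and 58.9% in HFCSD, against 1 of 8, 1 of 8 and 2 of 9 member probes. The second in HFCSD was the other THBS1 probe, described next.

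The second THBS1 probe could not be measured in whole blood at 27 weeks. A_72_P373148 was well above background on 1 of the 33 whole blood arrays, at 10 weeks, and on 7 of the 12 white blood cell arrays. In white blood cells it measured 5.20, 3.14, 3.22 and 3.11 in control, 3.03, 4.60, 3.06 and 1.44 in HFCD, and 3.48, 3.56, 3.43 and 4.31 in HFCSD. In HFCSD it entered the test only through the white blood cell group, in which all arrays passed the background test, so its call there is no finding. Its white blood cell mean of 3.69 lay under the mean whole blood detection floor of 4.29, and no direction is read from it. In control, where 2 of 4 white blood cell arrays measured it, a bound of at least 1.13-fold higher rested on replicate 1, one of the low pair, since the other arrays lay under the whole blood floor of 3.48, and no direction is read there either. The deviations of both THBS1 probes from their group means correlated at -0.35 over 45 arrays, at -0.44 in whole blood and at -0.31 in white blood cells, with the second probe mostly at background. Which of them, if either, follows the thrombospondin 1 transcript was not tested.

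**Figure D2:**
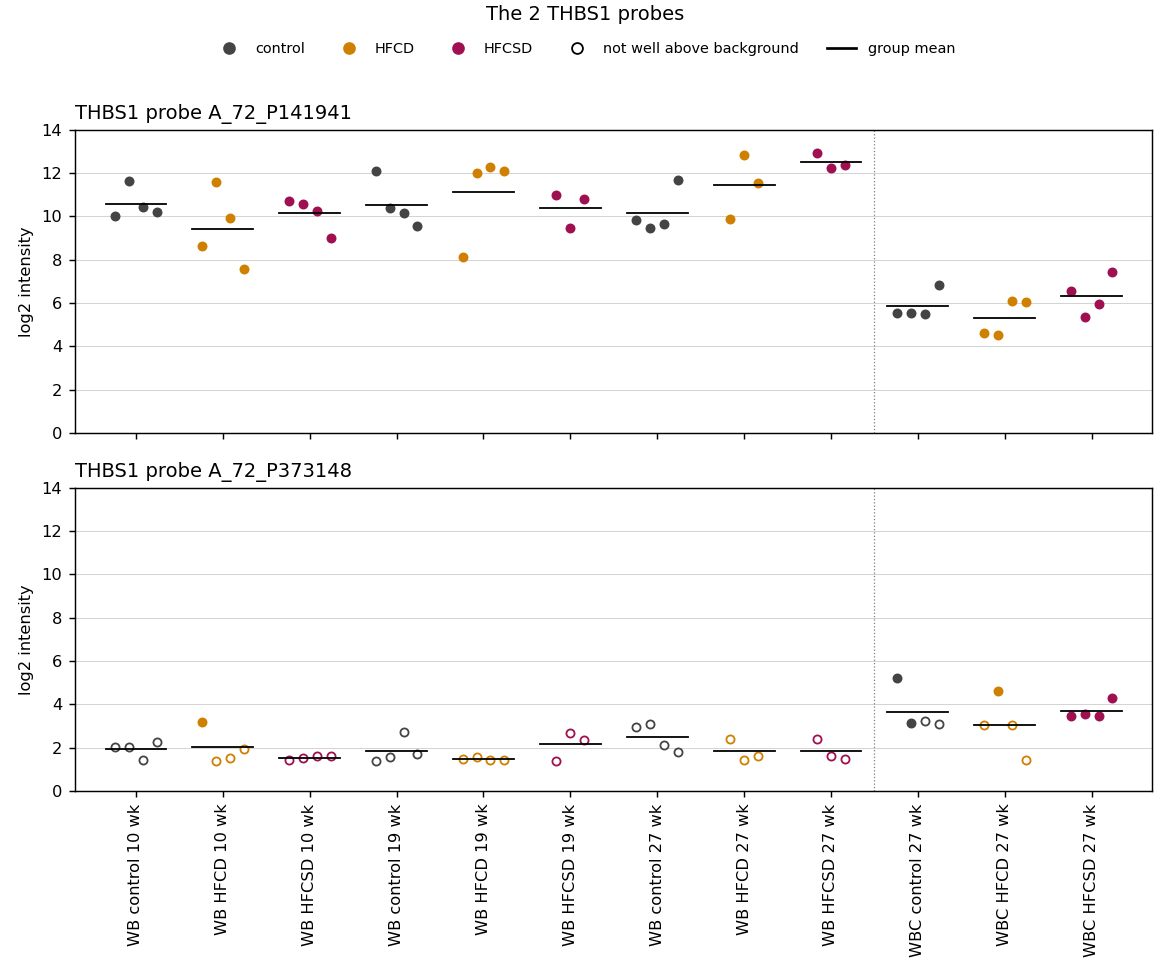
The THBS1 probes A_72_P141941 and A_72_P373148 in all 12 groups as log2 of the normalized signal, with 1 point per array, the group mean drawn as a line, and arrays that were not well above background drawn as open points. The first probe is lower in white blood cells in every diet, and the second is open on all whole blood arrays but 1.

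The other members showed no call in white blood cells against whole blood over all arrays. PF4 differed by -0.86 in control (-2.84 to 1.13, adjusted p = 0.479), by -0.62 in HFCD (-2.77 to 1.52, adjusted p = 0.636) and by 0.69 in HFCSD (-1.46 to 2.83, adjusted p = 0.579). PPBP differed by 1.33 (-1.16 to 3.83), 1.76 (-0.94 to 4.45) and 2.97 (0.27 to 5.67), the last with an adjusted p of 0.0544 and called with 75th percentile scaling at 3.25 (adjusted p = 0.0391). With 1 array left out this HFCSD difference of PPBP ran from 1.66 to 3.81. It was called without whole blood replicate 1 (3.81, adjusted p = 0.0379) and without white blood cell replicate 4 (3.58, adjusted p = 0.0337). Its RefSeq probe gave smaller differences, 0.32 (-2.24 to 2.88), 0.96 (-1.81 to 3.73) and 1.20 (-1.57 to 3.97). ITGA2B differed by 0.70 (-1.90 to 3.31), -0.10 (-2.92 to 2.71) and 0.32 (-2.50 to 3.14). The sign changed with the diet for PF4 and ITGA2B, and these intervals span several fold in both directions. In HFCSD the sign also turned with 1 array left out. The difference then ran from -0.19 to 1.34 for PF4 and from -0.35 to 0.83 for ITGA2B. ITGB3 differed by -0.25, -0.34 and 0.35, and CLU by 2.29 (-0.44 to 5.03), 1.22 (-1.73 to 4.17) and 1.40 (-1.55 to 4.36). GP1BA differed by 0.25, 0.40 and 0.09, with the narrowest intervals of the tested members (0.02 to 0.77 in HFCD, adjusted p = 0.0749). The median over all probes tested was 0.17, 0.19 and 0.42. GP1BA was called higher with 75th percentile scaling, by 0.48 in control and 0.66 in HFCD, where the median of all probes was 0.30 and 0.38. It was also called in control by the methods' t-test at 0.25 (adjusted p = 0.0497) and in HFCD with normexp at 0.34 (adjusted p = 0.0445).

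Without the 2 low white blood cell arrays the differences of PF4, PPBP, ITGA2B, ITGB3 and CLU in control and HFCD moved upward, as their removal fixes. In control CLU was then 3.72 higher in white blood cells, PPBP 2.58, ITGA2B 2.12 and ITGB3 1.21. In HFCD the differences were 2.67 for CLU, 2.91 for PPBP, 1.24 for ITGA2B and 0.96 for ITGB3. PF4 differed by 0.09 in control and 0.49 in HFCD, and THBS1 by -4.18 and -5.84. In this setting 4, 4 and 3 member probes passed the threshold in control, HFCD and HFCSD, and 45.7%, 45% and 61.6% of all probes. In HFCSD, from which no array was left out, PPBP passed at the same 2.97 because the pooled spread was smaller. The RefSeq probe of PPBP was at 1.62 in control (adjusted p = 0.0926) and 1.20 in HFCSD (adjusted p = 0.180) and passed in neither, and it passed in HFCD at 2.27.

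**Figure D3:**
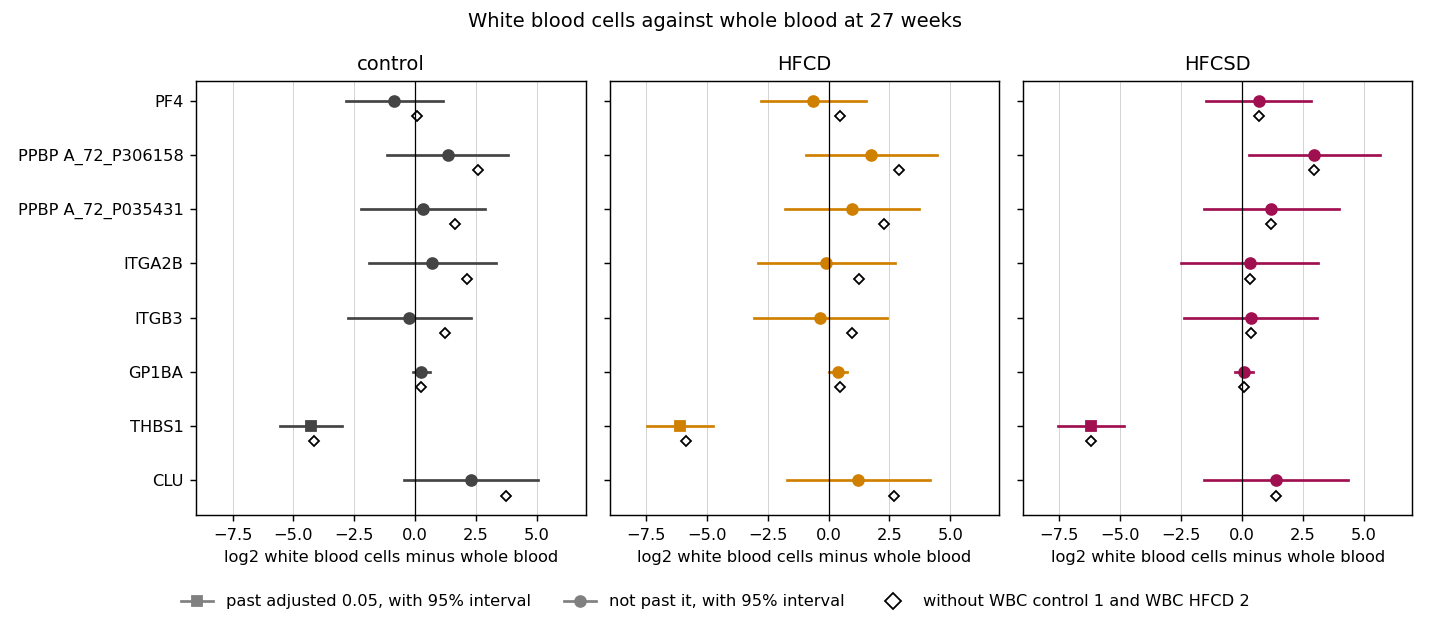
White blood cell level minus whole blood level at 27 weeks, on the log2 scale with 95% intervals, for each member probe measured in both sample types in the 3 diets, with all arrays and without the 2 low white blood cell arrays. THBS1, read by A_72_P141941, lies between -6.20 and -4.18 throughout, and the open diamonds, drawn without the 2 arrays, lie to the right of the filled points for PF4, PPBP, ITGA2B, ITGB3 and CLU in control and HFCD.

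Whether the diets changed these ratios was tested as a difference of differences. No member was called for HFCD minus control or for HFCSD minus control, and of all probes 0% and 1.38% were called. At an unadjusted p under 0.05 these tests held 0 and 1 member probes, against 268 and 3937 of all probes. The member was THBS1, at -1.91 (-3.77 to -0.05, adjusted p = 0.246) in HFCSD minus control. Without the low pair THBS1 was at -2.02 (adjusted p = 0.211) and CLU at -2.32 (adjusted p = 0.210) in HFCSD minus control, with no member called against 3.25% of all probes, and in HFCD minus control the members ran from -1.67 for THBS1 to 0.64 for the RefSeq probe of PPBP, against 0% called.

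PF4, PPBP, ITGA2B, ITGB3 and CLU varied together from array to array. Over deviations from the group means, their 10 pairwise correlations lay between 0.82 and 0.97 on all 45 arrays, with a median of 0.90. On the 33 whole blood arrays alone they lay between 0.60 and 0.94 (median 0.80), and on the 12 white blood cell arrays between 0.96 and 0.99 (median 0.98). Without the low pair the 10 remaining white blood cell arrays gave 0.81 to 0.98 (median 0.90). GP1BA, annotated as the von Willebrand factor receptor, correlated with these 5 at -0.03 to 0.10 and THBS1 at 0.11 to 0.28, the latter at -0.68 to -0.20 over white blood cells without the low pair. The points share their arrays and normalization, so these values describe these arrays and are given without a test.

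**Figure D4:**
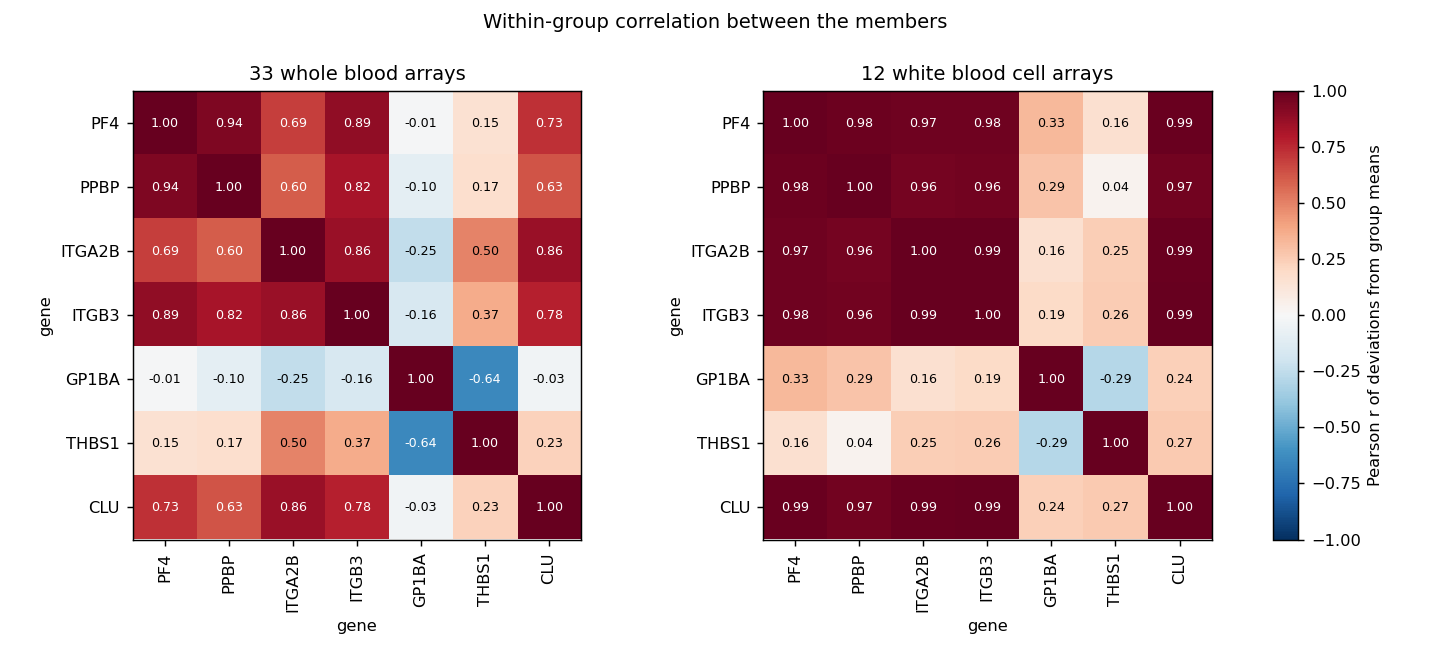
Pearson correlation of the deviations from group means between the representative probes of PF4, PPBP, ITGA2B, ITGB3, GP1BA, THBS1 and CLU, for whole blood (33 arrays) and white blood cells (12 arrays). PF4, PPBP, ITGA2B, ITGB3 and CLU form a block of 0.96 to 0.99 in white blood cells and 0.60 to 0.94 in whole blood.

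The spread of these genes within groups was also large beside that of other probes. In white blood cells the pooled SD within groups was 2.52 for ITGA2B, 2.51 for CLU, 2.45 for ITGB3 and 1.81 for PF4, while the median over the 12095 probes bright on all arrays was 0.345. ITGA2B exceeded 99.9% of those probes and PF4 99.1%. Without the low pair the SDs were 1.29 for ITGA2B, 1.03 for CLU, 1.096 for ITGB3 and 0.754 for PF4, the median 0.305, and ITGA2B exceeded 99.6% and PF4 96.6%. In whole blood CLU had an SD of 1.30 and PF4 of 1.00, and the median was 0.361. The GP1BA probe had a smaller spread than most, with an SD of 0.176 in white blood cells, which only 9.76% of the probes fell below.

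Genes of red cells varied over the same white blood cell arrays. HBE1, a globin chain, measured 8.11, 13.72, 14.21 and 14.30 in control white blood cells, 13.23, 8.06, 12.48 and 13.91 in HFCD, and 13.82, 13.08, 11.10 and 11.98 in HFCSD. Its lowest arrays were the same pair that was low in ITGA2B. Over white blood cells the within-group correlation of HBE1 was 0.99 with CLU, 0.98 with ITGA2B and ITGB3, 0.96 with PF4, 0.94 with PPBP, 0.33 with THBS1 and 0.10 with GP1BA. Without the low pair it was 0.95 with ITGA2B, 0.91 with CLU, 0.90 with ITGB3, 0.76 with PF4, 0.69 with PPBP, -0.04 with THBS1 and -0.30 with GP1BA. Of a list of 29 erythroid genes 4 had a probe, and their summed log2 level ran from 9.07 to 14.33 in control, 9.37 to 13.96 in HFCD and 11.42 to 13.89 in HFCSD white blood cells. TFRC, the transferrin receptor, was well above background on no array. Summed T cell genes were 13.49 and 13.90 on the low pair, within or above the 12.80 to 13.60 and 13.04 to 13.57 of the other arrays of those diets. Summed monocyte genes were 15.96 on control replicate 1, the highest of that group, and 14.49 on HFCD replicate 2. Summed vessel wall and stromal genes, of which 11 of the list had a probe, were 11.07 on control replicate 1 against 12.74 to 13.66 on the other control arrays, and 11.29 on HFCD replicate 2 against 11.82 to 12.38. Of these, 6 were well above background on at least 23 arrays, and over white blood cells they correlated with ITGA2B at 0.97 (CNN1), 0.92 (ACTA2), 0.89 (PECAM1), 0.22 (DES), 0.14 (DCN) and -0.57 (FN1). The part of red cell or vessel wall RNA, and of the filtration, in the platelet gene values was not tested.

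**Figure D5:**
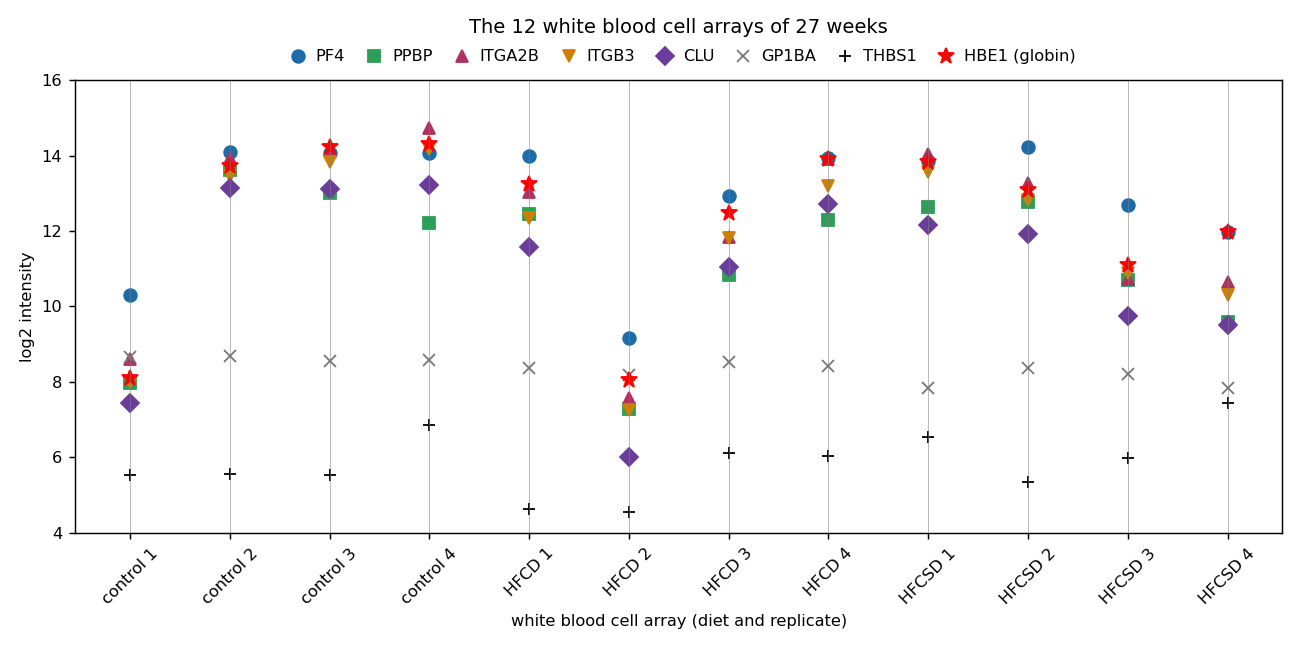
Levels of PF4, PPBP, ITGA2B, ITGB3, CLU, GP1BA and THBS1 with those of HBE1 on each of the 12 white blood cell arrays, as log2 of the normalized signal. Control replicate 1 and HFCD replicate 2 dip together in PF4, PPBP, ITGA2B, ITGB3, CLU and HBE1, and GP1BA stays between 7.84 and 8.69.

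Diet was compared within each sample type and feeding period. In whole blood at 10 weeks, all HFCD arrays lay below all control arrays for PF4, PPBP and ITGA2B, and the other members overlapped, and none was called. How many of all probes separated fully was not counted. Lack of overlap, here and in the other comparisons, is therefore only described and is no result about the members. PPBP measured 9.98, 9.75, 9.45 and 9.49 in control and 8.78, 8.49, 8.40 and 8.06 in HFCD, without overlap. The HFCD minus control difference of PPBP was -1.24 (-1.72 to -0.75, adjusted p = 0.133), and -1.43 (-1.98 to -0.88) on its RefSeq probe. PF4 differed by -0.84 (-1.32 to -0.36, adjusted p = 0.256), also without overlap, ITGB3 by -0.85 (-1.54 to -0.16), ITGA2B by -0.65 (-1.21 to -0.09) and CLU by -0.71 (-1.33 to -0.09). GP1BA differed by 0.03 (-0.36 to 0.42) and THBS1 by -1.16 (-2.73 to 0.41). By limma 6 of the 8 member probes tested had an unadjusted p under 0.05, as did 1779 of all 17767 probes, and 0.0281% of all probes were called. The median of the tested member probes was -0.85 and that of all probes 0.09. The median of genes of other cells was -1.18 for the 2 erythroid, -0.75 for the 6 vessel wall, -0.47 for the 4 liver, -0.11 for the 4 neutrophil, 0.17 for the 7 T cell and 0.28 for the 5 monocyte genes tested, the 1 B cell gene was at -0.57, and none was called. The summed erythroid level was 12.48 to 14.64 in HFCD and 13.99 to 14.92 in control, and its part in the platelet gene values was not tested. The share of bright spots also differed, at 35.4% to 43.4% on the control and 43.1% to 53.3% on the HFCD arrays. No member was called with this share as a covariate or without it, so the count cannot show its part in these values. That part was not tested further.

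HFCSD at 10 weeks lay near control. PPBP measured 9.42, 10.20, 9.47 and 9.41, a difference from control of -0.04 (-0.52 to 0.44), and PF4 differed by -0.20 (-0.67 to 0.28). No member was called, against 0.0123% of all probes, and none had an unadjusted p under 0.05, against 280 of all probes. Set against HFCD, PPBP was 1.19 (0.71 to 1.68) higher in HFCSD and PF4 0.64 (0.16 to 1.13) higher, neither of them called (adjusted p = 0.618 and 0.807). The same 6 member probes had an unadjusted p under 0.05 there, against 886 of all probes, and 0% of all probes were called. HFCD entered both of these comparisons, so they are not independent.

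At 19 weeks 2 HFCD whole blood arrays set the differences. PPBP measured 7.60, 9.66, 10.08 and 4.58 in HFCD and 9.65, 9.99, 9.94 and 9.23 in control, and ITGB3 measured 9.26, 11.83, 12.41 and 9.20 in HFCD. CLU measured 5.22, 10.76, 11.18 and 7.11 on the same HFCD arrays. Replicates 1 and 4 were low in each of the 3 genes while replicates 2 and 3 were near control. The differences from control were -1.92 (-3.89 to 0.05) for PF4, -1.72 (-3.85 to 0.40) for PPBP and -1.53 (-4.05 to 0.99) for CLU, and none was called. For HFCSD they ran from -0.65 for CLU to 0.29 for PPBP. The RefSeq probe of PPBP went the other way there, with means of 9.43 in HFCSD and 10.06 in control. Of all probes 0.0181% were called for HFCD against control, 0.0175% for HFCSD against control and 0% for HFCSD against HFCD, and no member in any of them. No member probe had an unadjusted p under 0.05 in these 3 comparisons, against 2073, 2042 and 254 of all probes. Control replicates 2 to 4 were scanned on another day than the rest of that period, and with scan day as a block the counts of members called stayed at 0. In that fit the contrasts with control rested on control replicate 1, so these counts cannot show the part of scan day.

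At 27 weeks THBS1 was the one member called for diet. Whole blood THBS1 by A_72_P141941 was higher in HFCSD than in control, without overlap in the values given above, by 2.37 (0.88 to 3.86, adjusted p = 0.0492), a level 5.16-fold higher. For this comparison 10.6% of all probes were called, and 1 of 8 member probes. The call was lost in 10 of 19 alternatives, among them leaving out control replicate 1, 2 or 3 or any one HFCSD array (2.14 to 2.50, adjusted p 0.0690 to 0.155). Calls over all probes changed as well, from 1161 higher and 663 lower in the main fit to 100 and 42 by the methods' t-test. Without a filter they were 252 and 202 of 43603 probes, and with the weaker flag 1183 and 690 of 24134. With the share of bright spots as a covariate the THBS1 difference was 0.72 (adjusted p = 0.514), and of all 17135 probes 0 were called higher and 0 lower. That share was 38.8% to 39.7% on the HFCSD and 38.9% to 50.2% on the control arrays, and the one dim control array, replicate 4, had the highest control THBS1. Over the 33 whole blood arrays the within-group correlation of THBS1 was 0.86 with HBE1 and -0.67 with the share of bright spots, and the summed erythroid level was 14.81 to 15.23 in HFCSD and 13.16 to 14.86 in control. Their part in the THBS1 difference was not tested beyond that fit.

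The members other than THBS1 showed no diet call at 27 weeks. Against control, whole blood ITGB3 in HFCD differed by -1.12 (-2.03 to -0.21, adjusted p = 0.895), with 12.38, 12.73, 12.84 and 12.51 in control against 11.32, 11.82 and 11.34. In HFCSD it measured 12.47, 11.79 and 10.39, a difference of -1.07 (-1.97 to -0.16, adjusted p = 0.107). PF4 differed by -0.86 (-2.10 to 0.39) in HFCD and by -1.49 (-2.73 to -0.25, adjusted p = 0.101) in HFCSD, and both diets lay wholly below control. PPBP differed by -1.41 in HFCD and -1.92 in HFCSD, ITGA2B by -0.46 and -0.30, and CLU by -0.33 and 0.00. In HFCSD the means of PF4, PPBP and ITGB3 rested on replicate 3. Without it the difference was -0.62 for PF4, -0.61 for PPBP, -0.48 for ITGB3 and 1.00 for CLU. That of ITGA2B turned to 0.37 when its lowest HFCSD array was left out. Among HFCD against control 0.0165% of all probes were called, and 0.0111% among HFCSD against HFCD. At an unadjusted p under 0.05 by limma these held 1 and 0 member probes, against 1008 and 2260 of all probes, and HFCSD against control held 4 of 8, against 5529 of 17135.

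Diet groups of white blood cells overlapped with control for all tested members but GP1BA. GP1BA was 0.25 lower in HFCD than in control (-0.60 to 0.11, adjusted p = 0.997) and 0.56 lower in HFCSD (-0.92 to -0.20, adjusted p = 0.293), each without overlap and neither called. PF4 differed from control by -0.62 (-3.04 to 1.79) in HFCD and 0.05 (-2.38 to 2.48) in HFCSD, and ITGA2B by -1.27 (-4.62 to 2.09) and -0.69 (-4.06 to 2.69). The intervals reach several fold either way. Of all probes, 0.0276% were called for HFCD against control, 0.0366% for HFCSD against control and 0% for HFCSD against HFCD. No member was called. By limma 0, 1 and 0 member probes had an unadjusted p under 0.05 in these 3 comparisons, against 855, 2170 and 408 of all probes. Without the low pair of arrays, CLU in HFCSD lay 2.32 below control (adjusted p = 0.164), ITGA2B 2.10 below (adjusted p = 0.247) and PF4 0.89 below, still without a call, against 0.0670% of all probes. HFCD against control was then -1.38 for CLU, -1.34 for ITGA2B and -0.46 for PF4, against 0.0213% of all probes, and HFCSD against HFCD was -0.94, -0.76 and -0.44, against 0%.

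Feeding period was compared within each diet in whole blood, and the periods were scanned on different days, so period, age and scan day cannot be told apart. The mean of CLU was lower at both later periods than at 10 weeks in every diet, and none of the 6 differences was called. At 10 weeks it measured 10.97, 11.96, 11.31 and 11.97 in control, 10.84, 10.496, 10.98 and 11.03 in HFCD, and 11.38, 12.06, 10.98 and 11.91 in HFCSD. At 27 weeks it measured 9.51, 10.19, 10.04 and 8.02 in control, 9.12, 9.55 and 8.66 in HFCD, and 10.33, 10.55 and 7.42 in HFCSD. These 2 periods did not overlap in any diet, whereas in HFCD the 19-week arrays given above overlapped with 10 weeks and their mean rested on replicates 1 and 4. The differences of 27 minus 10 weeks were -2.11 (-3.89 to -0.34, adjusted p = 0.0806) in control, -1.72 (-3.65 to 0.20, adjusted p = 0.304) in HFCD and -2.15 (-4.07 to -0.22, adjusted p = 0.139) in HFCSD. Those of 19 minus 10 weeks were -1.46, -2.27 and -2.13, with adjusted p from 0.0965 to 0.308. CLU was called lower when the fit held only the groups compared, for both periods in control and for 27 weeks in HFCD, with adjusted p of 0.0429, 0.0157 and 0.0151.

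ITGA2B likewise had a lower mean at both later periods in every diet, with differences of -0.48 and -0.37 in control, -0.67 and -0.18 in HFCD, and -0.90 and -0.70 in HFCSD at 19 and 27 weeks, none of them called (adjusted p 0.307 to 0.8998). PF4 in control differed by -0.21 (-1.57 to 1.16) at 19 weeks and 0.27 (-1.10 to 1.63) at 27 weeks, and PPBP by 0.03 and 0.70. Mean PF4 at 10, 19 and 27 weeks was 12.89, 11.60 and 13.13 in HFCD and 13.53, 12.97 and 12.50 in HFCSD. Mean PPBP was 8.43, 7.98 and 8.96 in HFCD and 9.63, 9.99 and 8.45 in HFCSD. THBS1 was 2.38 (0.55 to 4.22, adjusted p = 0.0862) higher at 27 than at 10 weeks in HFCSD and 2.01 (0.17 to 3.85, adjusted p = 0.196) higher in HFCD, but 0.42 lower in control (-2.12 to 1.28). The HFCSD difference of THBS1 was called when only the groups compared were fitted (adjusted p = 0.0126). In the fit of all whole blood arrays no member was called in these 6 comparisons. Of all probes, 12% were called at 19 weeks and 20.7% at 27 weeks in control, 6.98% and 5.59% in HFCD, and 7.16% and 10.4% in HFCSD. Depending on the diet and period, 0 to 2 of the 8 member probes tested had an unadjusted p under 0.05, against 3864 to 6085 of all probes.

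Other genes known from platelets were looked up in a list of 56, of which 19 had a probe and 16 were well above background on at least 23 arrays. Over the 12 white blood cell arrays 6 of the 16 followed ITGA2B with a correlation above 0.9, among them VWF (von Willebrand factor), SELP (P-selectin, an adhesion receptor of the granule membrane), P2RY1 (an ADP receptor), F5 (coagulation factor V) and ESAM (a junction protein). Without the low pair 5 of the 16 exceeded 0.9. Genes of the erythroid and vessel wall lists also exceeded 0.9 over the 12 arrays, namely HBE1 (0.98), CNN1 (0.97), EPOR (0.92) and ACTA2 (0.92). The share of all probes above 0.9 was not counted, so the count is no result about platelet genes. CD9 and CCL5, which T cells also make, correlated negatively over white blood cells (-0.85 and -0.67), and so did SYK (-0.13). VWF ran from 6.87 to 13.26 in control white blood cells, from 5.20 to 12.23 in HFCD and from 8.06 to 11.84 in HFCSD. P2RY12, the other ADP receptor, was well above background on no array.

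In white blood cells against whole blood, 4 of 15 tested genes were called higher and 0 lower in control, 2 and 0 of 15 in HFCD, and 4 and 1 of 16 in HFCSD, against 45.3%, 47.5% and 58.9% of all probes called in either direction, and the list's median difference was 0.64, 0.62 and 0.83. The 4 called in control were TBXAS1 (thromboxane synthase) at 2.37, TGFB1 (a growth factor) at 1.36, FCER1G (an Fc receptor chain) at 0.76 and LYN (a tyrosine kinase) at 0.65. TBXAS1 and TGFB1 were also called in HFCD (1.75 and 1.22) and HFCSD (2.03 and 1.40). The others called in HFCSD were CD36 (a scavenger receptor) at 1.73 and LYN at 0.91, and GATA2, a transcription factor of blood progenitors, at -2.33 (adjusted p = 2.6e-05), which was the one called lower. In HFCD against control at 10 weeks none of 16 tested was called, and their median was -0.46. In HFCSD against control whole blood at 27 weeks 1 of 15 was called higher, GATA2 at 2.35 (adjusted p = 0.0191), and 2 lower, CD36 at -1.57 (adjusted p = 0.0344) and LYN at -0.82 (adjusted p = 0.0364). Of all probes 10.6% were called in either direction there, and the list's median was -0.58 beside -0.21 for all probes. In the other comparisons of diets within a sample type and period none was called. Against 10 weeks, TGFB1 was called lower in control at 19 weeks (-0.78) and 27 weeks (-0.87) and in HFCSD at 27 weeks (-0.80). In control at 27 weeks TBXAS1 was also called lower (-1.56) and LYN higher (0.84). Of all probes 12%, 20.7% and 10.4% were called in these comparisons. In the difference of differences GATA2 was called at -2.32 for HFCSD minus control (adjusted p = 0.0268), against 1.38% of all probes.

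The probes most like each member in their deviations from the group means over 45 arrays were searched among 1996 to 1997 bright probes with a gene symbol. VWF at 0.99 and ITGB3 at 0.97 were most like ITGA2B, and SELP at 0.97 was among the 2 most like ITGB3. COX11 and RAB38 were most like both chemokines, each at 0.97 with PF4 and at 0.98 with PPBP. GGT1 at 0.98 and a probe of FHL1 at 0.94 were most like CLU. The integrin genes thus had other platelet genes of the list above or of the members as their nearest, while the remaining members did not. For THBS1 they were PSORS1C2 at 0.98 and OPRL1 at 0.96, and for GP1BA both probes of SLA-DRB1 (a class II histocompatibility gene) at 0.76 and 0.74. No search was read for SPARC, which was at background. When the search was limited to the 33 whole blood arrays, both probes stayed the same for PPBP and GP1BA, and 1 of 2 for PF4, ITGA2B, ITGB3, THBS1 and CLU.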

How the data were processed

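RNA of 33 whole blood and 12 white blood cell samples was hybridised to Agilent 1-colour arrays, and samples were grouped by the deposited labels. The authors deposited spot intensities from Feature Extraction, with the background already subtracted by the software (version 9.5.3.1 per the submitters' processing notes, 10.5.1.1 per the file headers), and a table of intensities that they had quantile normalized. That table was used only as an alternative. Genome build: not given in the sources used here.

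The log2 processed intensities of the 45 arrays were quantile normalized, spots marked as outliers (1 to 31 per array) were left out, and spots of a probe were averaged. Comparisons were limited to probes well above background on every usable array of at least 1 group compared. Fits used limma 3.58.1 in R 4.3.3 with Benjamini-Hochberg adjustment at 0.05 over all probes tested: the 6 groups of 27 weeks together, the 3 diets of each sample type and period, and the 9 whole blood groups together for feeding period, 23 comparisons in all. Intervals are 95%. The steps were tested on simulated data. Tables were handled with Python 3.11.15, numpy 2.4.6 and pandas 2.3.3, and figures drawn with matplotlib 3.10.9.

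Members and gene lists were chosen with earlier results of these data known. All members are named. Of the other platelet genes, up to 3 called genes at either end of the control difference were to be named, and the 4 that passed are given, with those of HFCSD named because they were few. Genes followed by a correlation above 0.9 with ITGA2B were picked after their values were seen. The pattern search took the 2 most similar probes per member except SPARC. Alternatives were other scalings, background corrections, filters and blocks, leaving out arrays in turn, and the omission of 2 white blood cell arrays together, which was chosen after seeing the data.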

Additional observations from a re-analysis of the deposited data

Results flagged for a closer look

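In groups of 4 arrays, 9 of 72 combinations of group and gene had an array that lay far from the other 3 by Dixon's test, and chance would give about 1 in 20. Among them 4 were the same array, control replicate 1 of the white blood cells, the lowest of its group for PF4 (10.30), ITGA2B (8.62), ITGB3 (7.99) and CLU (7.45). On THBS1 the highest array was control replicate 4 both in white blood cells (6.86) and in whole blood at 27 weeks (11.69), and the lowest in HFCD whole blood at 19 weeks was replicate 1 (8.14). PF4 was highest on replicate 3 of HFCD whole blood at 10 weeks (13.07), and PPBP on replicate 2 of HFCSD whole blood at 10 weeks (10.20).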

How the results depend on the processing

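Under the alternatives 444 counts of called member probes stayed within 1.5 times the reported count and 28 did not, and among single differences 1535 kept their direction and side of the threshold, 14 passed it newly and 10 fell back. THBS1 by its other probe, or by the mean of both, gave no difference that could be read for white blood cells against whole blood. The other probe was well above background on no whole blood array at 27 weeks. Of white blood cells against whole blood, the count of 1 in control became 2 with 75th percentile scaling, 2 with the methods' t-test and 4 without both low arrays, and ranged from 1 to 2 with each array left out in turn. Of all 19022 probes, the main fit called 4638 higher and 3981 lower, that scaling 5841 and 3779, and the t-test 3189 and 3223. In HFCD the count of 1 became 2 with 75th percentile scaling, 2 with normexp and 4 without the low pair. Of all 19414 probes, the main fit called 4960 higher and 4270 lower, that scaling 6701 and 4131, and normexp 4979 and 4087. Without the low pair 45.7% of all probes were called in control and 45% in HFCD. In HFCSD the count of 2 became 1 with normexp, 1 with the filter on all groups compared and 1 with the share of bright spots as covariate. With each array left out in turn it ranged from 2 to 3. Of all 19689 probes in HFCSD, the main fit called 7329 higher and 4258 lower, normexp 6845 and 4199, and the covariate fit 3203 and 2974. The filter on all groups compared left 14153 probes, of which 4328 were called higher and 3139 lower. For feeding period, counts of 0 became 1 when only the groups compared were fitted, for control at 19 weeks (1) and 27 weeks (1), HFCD at 27 weeks (1) and HFCSD at 27 weeks (1), the last also with the weaker background flag (1, a SPARC probe at background in HFCSD at 27 weeks, from which no difference is read). HFCD at 19 weeks ranged from 0 to 1 over arrays left out, with THBS1 called without replicate 1 and CLU without replicate 2 or replicate 3 of the 19-week group. The count of 1 for HFCSD against control whole blood at 27 weeks became 0 without a filter, 0 with the weaker flag, 0 with the covariate and 0 with the methods' t-test, and ranged from 0 to 1 over arrays left out. Calls of all probes in these settings, arrays left out aside, are given with that comparison above. With the replicate number as a block the counts stayed at 1, 1 and 2 for the sample types and 1 for HFCSD at 27 weeks, and at 0 elsewhere. Pigs were sampled repeatedly, but same-numbered samples did not correlate in all pairs of groups, so the block was not taken as pairing. Scan day could be fitted as a block only at 19 weeks. SPARC and the second THBS1 probe are limited by signal over background.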
